A study of Mus musculus with 2 samples.

Results

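The interferon-stimulated genes described here are 37 mouse genes chosen by name, as genes known to be induced when a cell senses interferon. They were counted in single adipose tissue macrophages (ATMs) of 1 library from mice on a control diet (CD) and 1 library from mice given a high-fat diet (HFD) overnight. All 37 were among the 31053 genes of the count tables, and 33 of them had at least 100 UMIs (unique molecular identifiers, 1 per captured transcript) in both libraries together, as had 8708 genes in all. The other 4 were *Isg20* with 98 UMIs, *Ifit2* and *Oas3* with 56 each and *Ifi44* with 5.

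Both libraries were made with the same steps from epididymal fat of male mice of strain C57/BL6 (as the labels spell it), 8 to 12 weeks old, with 3 mice pooled in each. The CD held 11% of its energy as fat, with corn starch, and the HFD 58%, with sucrose, given from the afternoon to the next morning. Cells were freed with collagenase and sorted as CD45+ and F4/80+ cells low in or lacking Ly6C and negative for lineage markers, and then run as 10x 3' single cells. The pooling leaves 1 sample per diet, so no test between diets was possible. No p-value is given, and every interval below is an exact 95% interval that covers counting error only. Differences between mice, digestions and libraries come on top of it and cannot be told apart from diet. Spread from cell to cell within a library is not covered either. The intervals are thus too narrow also where groups of cells of 1 library are compared.

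Interferons bind receptors at the cell surface, which switch on the kinases JAK1 and TYK2. These phosphorylate STAT2, which joins IRF9 in a complex that enters the nucleus and binds an element of repeated GAAA words in the promoters of its target genes. The products of those genes sense foreign nucleic acids, block viral RNA, translation or entry, or feed back on the pathway. Macrophages hold many of them at a basal level without infection.

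The promoter word is shown first, since it links the members by sequence and not by level. RefSeq promoter windows (build GRCm38.p6, from 250 bases before to 50 after the start site) were found for 29 of the 37 members. The word GAAANNGAAA, searched on both strands with overlapping matches allowed, was present in 16 of those 29 windows (55.2%), against 3.99% of the windows of 27025 genes. The following are the 160 bases before the start site for 7 members chosen because they hold the word there, and for *Stat2*, whose only match lies further upstream, read 5' to 3' on the gene's strand, with the matches in capitals; TTTC marks a match on the opposite strand.
Isg15: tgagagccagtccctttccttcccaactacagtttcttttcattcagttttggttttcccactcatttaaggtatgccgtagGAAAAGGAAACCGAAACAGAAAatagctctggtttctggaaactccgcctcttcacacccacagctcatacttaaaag
Ifit1: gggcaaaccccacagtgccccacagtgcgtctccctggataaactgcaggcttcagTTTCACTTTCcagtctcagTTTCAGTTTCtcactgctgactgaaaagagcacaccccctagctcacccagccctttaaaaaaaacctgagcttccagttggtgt
Ifit3: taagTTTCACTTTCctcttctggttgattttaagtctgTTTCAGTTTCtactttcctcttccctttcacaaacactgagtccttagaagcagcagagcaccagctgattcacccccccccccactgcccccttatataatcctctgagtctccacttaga
Rsad2: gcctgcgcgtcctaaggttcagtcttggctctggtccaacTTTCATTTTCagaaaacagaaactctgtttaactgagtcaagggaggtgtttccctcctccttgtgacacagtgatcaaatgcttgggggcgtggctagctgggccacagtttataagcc
Oas1a: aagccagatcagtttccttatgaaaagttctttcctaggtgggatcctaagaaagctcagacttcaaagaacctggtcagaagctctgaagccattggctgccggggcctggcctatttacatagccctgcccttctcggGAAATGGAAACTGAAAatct
Bst2: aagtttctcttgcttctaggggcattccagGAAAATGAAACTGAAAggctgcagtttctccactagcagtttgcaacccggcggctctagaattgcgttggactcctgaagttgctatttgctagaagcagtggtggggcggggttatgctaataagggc
Gbp7: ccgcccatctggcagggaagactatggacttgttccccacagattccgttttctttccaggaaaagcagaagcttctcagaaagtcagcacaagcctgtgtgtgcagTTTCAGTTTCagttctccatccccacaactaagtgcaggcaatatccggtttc
Stat2: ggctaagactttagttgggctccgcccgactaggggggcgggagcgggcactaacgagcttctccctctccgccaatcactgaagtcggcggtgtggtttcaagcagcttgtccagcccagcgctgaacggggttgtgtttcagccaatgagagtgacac
In *Isg15* (chr4:156200819-156200978, minus strand) 3 matches overlapped, with first bases at -78, -72 and -66 from the start site. *Ifit1* (chr19:34640729-34640888, plus strand) had separate matches at -104 and -85, and *Ifit3* (chr19:34583369-34583528, plus strand) at -156 and -122. *Rsad2* (chr12:26456453-26456612, minus strand) had 1 match at -120. *Oas1a* (chr5:120907526-120907685, minus strand) and *Bst2* (chr8:71537473-71537632, minus strand) each had an overlapping pair, at -20 and -14 and at -130 and -124. *Gbp7* (chr3:142530176-142530335, plus strand) had 1 at -53, and its neighbour *Gbp2*, which starts 90.3 kb away, 1 at -59. *Stat2* (chr10:128270338-128270497, plus strand) had its match at -222 and none in the stretch shown. *Ifitm3*, the member with most UMIs, had its 2 matches just after the start site, at 3 and 20. A match is a description of these letters and was not read as a bound site.

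Several members also lie side by side. *Rsad2* and *Cmpk2* start 12.8 kb apart on chromosome 12, *Ifit2*, *Ifit3* and *Ifit1* follow each other at 32.8 and 57.3 kb on chromosome 19, *Slfn5* and *Slfn2* at 114 kb on chromosome 11, and *Oas3* and *Oas1a* at 130 kb on chromosome 5 (mm10, GENCODE M21).

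After cells with 200 to 3500 genes and at most 10% mitochondrial UMIs were kept, the CD library had 2364 of 4459 barcodes and the HFD library 2021 of 3163, with 12284010 and 8086475 UMIs. The median cell had 4490.5 UMIs in CD and 2792 in HFD, and 14.4% and 40.8% of cells had under 1000 genes. The libraries shared 14 barcodes, 7 of them among kept cells. At least 1 of 7 macrophage markers had a UMI in 99.0% of CD and 94.9% of HFD cells. UMIs of T cell markers (17 in CD and 7 in HFD) and NK cell markers (3 and 2) were few, and stromal markers had 869 and 37. Plasmacytoid dendritic cell markers had 177 UMIs in 6.18% of CD cells and 83 in 3.81% of HFD cells. Erythroid markers were the largest foreign list, with 9702 UMIs in 24.7% of CD cells and 7127 in 7.32% of HFD cells. Levels are given as CPM, the UMIs of a gene scaled to a fixed total of UMIs of the library or cell class (counts per 1000000), and a 3' UMI count needs no correction for gene length. Reads that fit more than 1 gene were not counted, so the levels of members with near-identical copies (*Ifitm3*, *Oas1a*, *Ifi204*, *Trim30a*, the *Gbp* and *Slfn* genes) may be too low.

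The 37 genes made up 3838 CPM in CD (3803 to 3873, 47146 UMIs) and 3461 CPM in HFD (3420 to 3501, 27984 UMIs), a log2 ratio of HFD over CD of -0.15 (-0.17 to -0.13). The sum was mostly that of 2 genes. *Ifitm3* (chr7:141009586-141010770), a membrane protein that keeps enveloped viruses from fusing, held 48.9% of member UMIs in CD and 53.0% in HFD. *Ifi27l2a* (chr12:103442167-103443680), a small mitochondrial protein gene and a frequent reporter of interferon exposure, held 23.6% and 15.8%. Without them the other 35 members had 1059 CPM in CD (1041 to 1077) and 1079 in HFD (1056 to 1102), a log2 ratio of 0.03 (-0.01 to 0.07). The summed level was therefore lower in HFD with these genes and nearly equal without them. Of the 2 genes, *Ifi27l2a* had a log2 ratio of -0.72 and *Ifitm3* of only -0.03.

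Gene by gene, *Ifitm3* stood at 1875 CPM in CD and 1834 in HFD, and *Ifi27l2a* at 904 and 548. *Slfn2*, a schlafen gene that keeps immune cells quiescent, followed with 163 and 199 CPM, and then *Bst2*, the tether of budding virus particles, with 150 and 110. *Ifi204*, a DNA sensor of the HIN-200 family, came next with 68.6 and 66.2 CPM. Below these the members ran from 65.1 CPM in CD for *Trim30a* to 0.33 for *Ifi44*. *Ifi44* had 4 UMIs in CD and 1 in HFD and was at the counting floor in HFD.

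**Figure D1:**
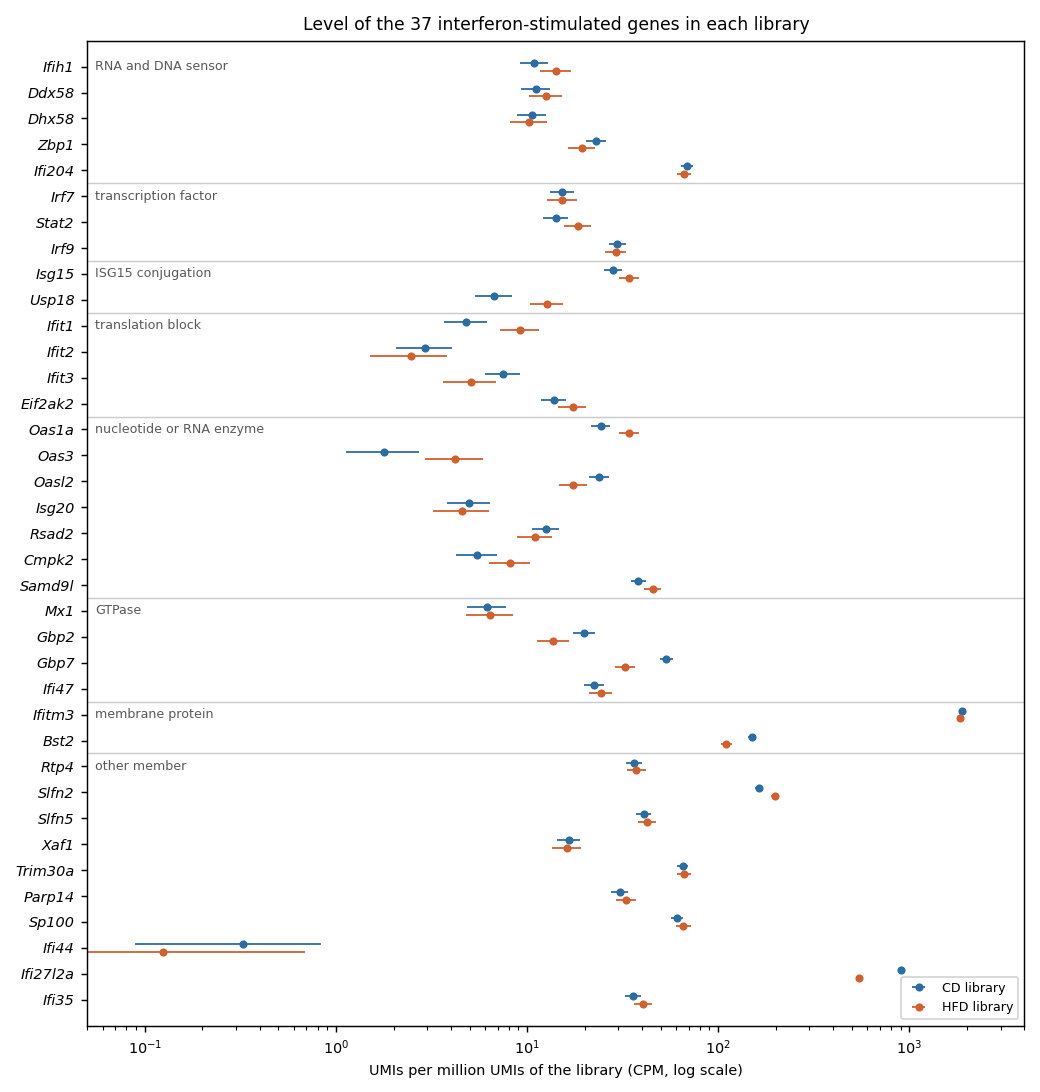
Level of each of the 37 interferon-stimulated genes in the CD and HFD libraries, in CPM on a log axis, grouped by role, with exact 95% Poisson intervals that cover counting error only. *Ifitm3* (1875 and 1834 CPM) and *Ifi27l2a* (904 and 548 CPM) lie far to the right of the other members, and for most genes the 2 libraries lie close together.

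Between diets, few members moved far. Of the 33 members with at least 100 UMIs, 2 were 1.5-fold or more higher in HFD, where 3.80% of all 8708 genes were, and 2 were 1.5-fold or more lower, where 7.11% were. The median member ratio was 0.05 on the log2 scale, against -0.01 over all genes, with 19 members above 0 and 14 below. The intervals of 18 of the 33 held 0, as did those of 59.2% of all genes. The counts past the fold were each 6.06% of the members, near the share of all genes. These counts thus set the members apart from other genes in neither direction.

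The 2 higher members were *Usp18* and *Ifit1*. *Usp18*, the protease that removes ISG15 and dampens the type I interferon receptor, had 82 UMIs in CD and 103 in HFD, or 6.68 and 12.7 CPM, a log2 ratio of 0.93 (0.50 to 1.37). Its UMIs were spread over 68 cells in CD and 86 in HFD. *Ifit1*, which binds viral RNA with foreign caps, had 59 UMIs in 46 CD cells and 74 in 38 HFD cells (4.80 and 9.15 CPM), a log2 ratio of 0.93 (0.42 to 1.45). A single HFD cell held 22 of its 74 UMIs, and without the 1 cell of each library with most member UMIs the ratio was 0.42 (-0.15 to 0.98), so the higher *Ifit1* rested on that cell and the higher *Usp18* (0.95 without it) did not.

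The 2 lower members were *Ifi27l2a* and *Gbp7*. *Ifi27l2a* had 11105 UMIs in CD and 4430 in HFD, a log2 ratio of -0.72 (-0.77 to -0.67). *Gbp7*, a guanylate-binding GTPase of cell-autonomous defence, had 658 and 263 UMIs, or 53.6 and 32.5 CPM, also -0.72 (-0.93 to -0.51). No cell held more than 4 *Gbp7* UMIs, so its lower level was spread over cells. *Gbp2*, its chromosomal neighbour, pointed the same way with 19.9 and 13.7 CPM (-0.53, -0.87 to -0.20), short of 1.5-fold.

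**Figure D2:**
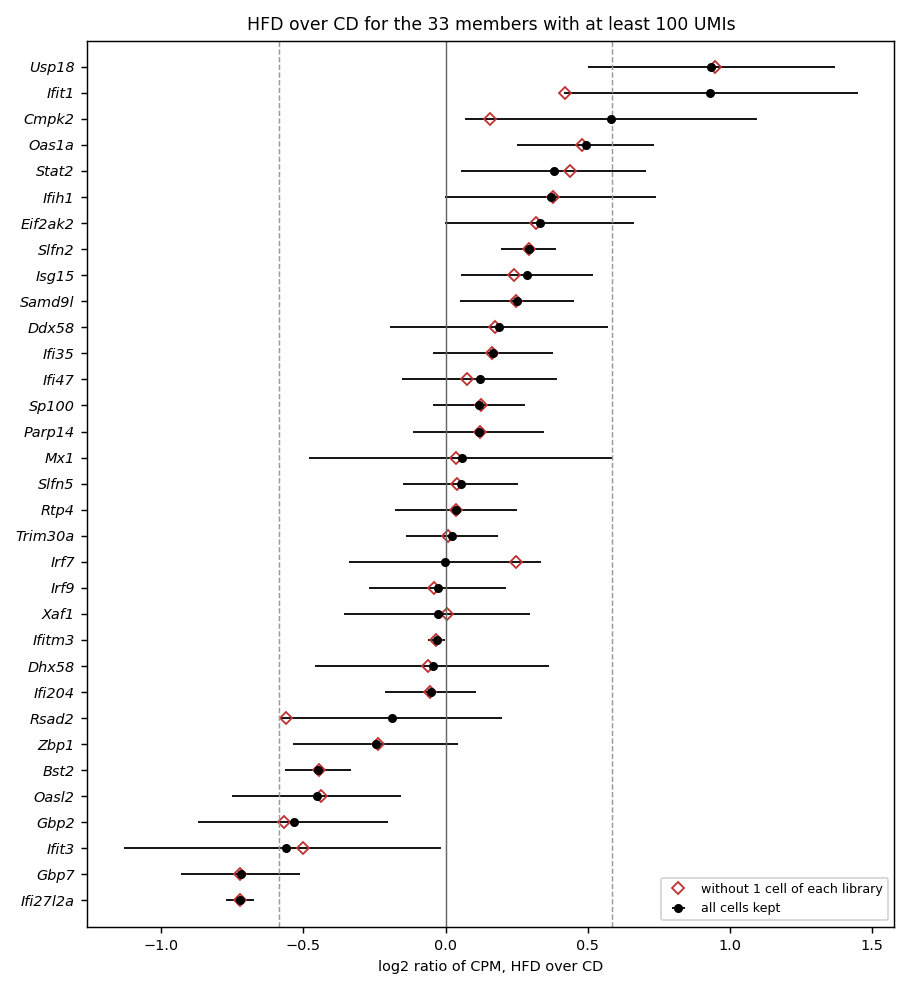
Log2 ratio of CPM, HFD over CD, of each member with its exact 95% counting interval, for the 33 with at least 100 UMIs, as filled points; dashed lines mark 1.5-fold, and open diamonds give the ratio without the 1 cell of each library with most member UMIs. *Usp18* and *Ifit1* (both 0.93) lie beyond the upper line, *Ifi27l2a* and *Gbp7* (both -0.72) beyond the lower one, and the rest lie between.

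Ordered by role, the 5 sensors of RNA and DNA (*Ifih1*, *Ddx58*, *Dhx58*, *Zbp1* and *Ifi204*) summed to 124 CPM in CD and 122 in HFD, a log2 ratio of -0.02 (-0.14 to 0.10). Singly they ran from -0.25 for *Zbp1*, which binds Z-form nucleic acid, to 0.37 for *Ifih1*, which senses long double-stranded RNA. No sensor reached 1.5-fold. Of the transcription factors of the response, *Irf7* and *Irf9* were as close. *Irf7*, the amplifier of type I interferon genes, had 15.2 CPM in both libraries (187 and 123 UMIs, interval of the log2 ratio -0.34 to 0.33), and *Irf9*, the DNA-binding part of the complex with STAT2, had 29.6 and 29.1 CPM (-0.03, -0.27 to 0.21). *Stat2* had 14.2 and 18.4 CPM (0.38, 0.05 to 0.70). A single CD cell held 31 of the 187 *Irf7* UMIs, and without the top cell of each library the *Irf7* ratio was 0.25 (-0.11 to 0.60).

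The ISG15 pair, made up of *Isg15*, a ubiquitin-like modifier, and *Usp18*, which takes it off, summed to 34.8 CPM in CD and 47.0 in HFD (0.43, 0.23 to 0.64). *Isg15* itself had 345 and 277 UMIs, or 28.1 and 34.3 CPM (0.29, 0.05 to 0.52). The 4 members that block translation gave 0.23 (-0.00 to 0.46), but its genes pointed in different directions. *Ifit3* was at 7.49 and 5.07 CPM (-0.56, -1.13 to -0.02; 92 and 41 UMIs), *Ifit2* at 2.93 and 2.47 with 36 and 20 UMIs (-0.24, -1.11 to 0.58), and *Eif2ak2*, the kinase PKR, at 13.8 and 17.3 (0.33). The neighbours *Ifit1*, *Ifit2* and *Ifit3* thus had ratios from -0.56 to 0.93, all on small counts.

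The 7 enzymes of nucleotides and RNA summed to 111 CPM in CD and 125 in HFD (0.17, 0.05 to 0.29). *Oas1a* and *Oas3* make an oligoadenylate messenger that switches on RNase L. *Oas1a* had 24.3 and 34.3 CPM (0.49, 0.25 to 0.73), and *Oas3* 22 and 34 UMIs (1.23, 0.42 to 2.08), too few to count as past the fold. *Oasl2*, a family member with ubiquitin-like domains, was lower in HFD with 23.9 and 17.4 CPM (-0.45, -0.75 to -0.16). *Samd9l*, an inhibitor of translation and cell growth, had 38.3 and 45.5 CPM (0.25, 0.05 to 0.45), and *Isg20*, an exonuclease, 4.97 and 4.58 CPM. *Rsad2* (viperin) and its neighbour *Cmpk2* had log2 ratios of -0.19 and 0.58, and without the top cells -0.56 and 0.16. The family was split, with no member at or past 1.5-fold on 100 UMIs.

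The 4 GTPases (*Mx1*, *Gbp2*, *Gbp7*, *Ifi47*) were lower in HFD as a sum, 102 CPM in CD and 76.9 in HFD (-0.41, -0.55 to -0.27), with *Gbp2* and *Gbp7* below 0 and *Mx1* (0.06) and *Ifi47* (0.12) just above. C57BL/6 mice carry a defective *Mx1*. The 2 membrane proteins gave -0.06 together, where *Bst2* alone was -0.45 (-0.56 to -0.33; 1848 and 892 UMIs) and *Ifitm3* -0.03 (-0.06 to -0.00). Among the 10 remaining members *Slfn2* was higher in HFD (0.29, 0.20 to 0.39; 1998 and 1610 UMIs) and *Ifi27l2a* lower, while the other 7 with at least 100 UMIs, *Rtp4*, *Slfn5*, *Xaf1*, *Trim30a*, *Parp14*, *Sp100* and *Ifi35*, lay between -0.03 and 0.17.

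Cells were next split by the rule's 5 marker classes: at least 1 UMI of *Lyve1*, *Ccr2*, *Plac8* or *Trem2*, or at least 10 UMIs of *Lyz1* (Lyz1-high). *Lyve1* marks tissue-resident macrophages, *Ccr2* cells that recently came from monocytes, *Plac8* monocytes, *Trem2* lipid-handling macrophages, and *Lyz1* is a lysozyme gene. Lyve1+ cells were 1172 in CD and 415 in HFD (49.6% and 20.5% of kept cells), Ccr2+ cells 1326 and 1131 (56.1% and 56.0%), Lyz1-high cells 555 and 672 (23.5% and 33.3%), Plac8+ cells 42 and 73 (1.78% and 3.61%), and Trem2+ cells 638 and 168 (27.0% and 8.31%). A cell may be in several classes. Cells in no class numbered 260 in CD and 516 in HFD, and 95.7% of CD Lyz1-high cells were also Ccr2+. Of Trem2+ cells 60.5% in CD and 19.0% in HFD were also Lyve1+. Among Lyve1+ cells 42.4% in CD and 37.1% in HFD were also Ccr2+, and among Plac8+ cells 71.4% and 76.7%. The classes are thus not separate cell types. A class cut by detected UMIs takes in deeper cells more often. Lyz1-high cells had a median of 8205 UMIs in CD and 6609 in HFD, against 3707 and 1839 in the other cells, and Lyve1+ cells were shallower than the others (4052.5 against 5166.5, and 2299 against 3081.5).

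The level of the 34 less abundant members was lower in deeper cells, and this stands beside each class result. The 34 members other than *Ifitm3*, *Ifi27l2a* and *Slfn2* had 1168 CPM in CD cells with 200 to 999 genes and 710 in those with 2000 to 3500, and 1185 and 615 CPM in HFD. All 37 members together did not run that way. They were at 3410 CPM in CD cells with 200 to 999 genes, 4221 with 1500 to 1999 and 3559 with 2000 to 3500. In HFD they were at 2980, 3913 and 3208 CPM. The part of depth in the class differences was not tested.

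Lyz1-high cells were the class low in interferon-stimulated genes. The 35 members without *Ifitm3* and *Ifi27l2a* had 771 CPM in Lyz1-high cells of CD against 1241 in the other cells (-0.69, -0.74 to -0.63), and 806 against 1437 in HFD (-0.83, -0.90 to -0.77). Of the 33 members 21 were 1.5-fold or more lower in CD and 22 in HFD, where 22.6% and 24.8% of all genes were. None was 1.5-fold or more higher, where 8.14% and 5.89% of all genes were. The lowest in CD were *Slfn5* (13.0 against 58.4 CPM in CD, 15.9 against 77.1 in HFD; -2.16 and -2.28), *Rtp4*, a chaperone of membrane receptors (-1.94 and -1.49), and *Ifit3* (-1.94 and -2.23 on 13 and 9 UMIs). *Ifi204* was at 25.8 against 95.7 CPM in CD and 19.4 against 128 in HFD (-1.89 and -2.72). At the other end were *Mx1* (0.43 and -0.40), *Slfn2* (0.42 and 0.03) and *Gbp2* (-0.06 and 0.26). The low level thus ran through most members but not all.

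Ccr2+ cells, which hold most Lyz1-high cells, were lower in the 35-gene sum in both libraries, with 958 CPM against 1303 in CD (-0.44, -0.50 to -0.39) and 989 against 1370 in HFD (-0.47, -0.54 to -0.40). In CD 13 members were 1.5-fold or more lower and 0 higher (18.2% and 8.79% of all genes), and in HFD 8 were lower and 2, *Zbp1* and *Gbp2* (0.68), higher (23.5% and 8.23%). The HFD counts, 24.2% and 6.06% of the members, were near the shares of all genes and did not set the members apart. The lowest were *Ifi204* (48.3 against 118 CPM in CD, -1.29; -1.62 in HFD), *Oasl2* (-1.27 and -1.80) and *Slfn5* (-1.11 in both). The highest in CD were *Mx1* (0.52 and -0.39), *Zbp1* (0.46 and 0.91) and *Slfn2* (0.37 and -0.21). With *Ifitm3* and *Ifi27l2a* counted, the sum was lower than in the other cells in CD (-0.25) and higher in HFD (0.07). The HFD value was -0.018 with at least 1000 genes per cell and 0.001 with classes from thinned cells, so the opposite order was lost there. Ccr2+ cells of HFD had a median of 4965 UMIs against 1545.5 in the others. *Ifitm3* was at 1846 CPM in Ccr2+ and 1945 in other CD cells, and at 1949 and 1464 in HFD. *Ifi27l2a* was at 830 and 1084 in CD and at 561 and 504 in HFD.

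Lyve1+ cells, in contrast, were higher in the 35 genes, with 1222 CPM against 933 in CD (0.39, 0.34 to 0.44) and 1340 against 1025 in HFD (0.39, 0.31 to 0.46). In CD 10 members were 1.5-fold or more higher and 1, *Mx1*, lower, where 13.8% and 7.33% of all genes were. In HFD 9 were higher and 0 lower, where 14.0% and 7.01% were. *Ifi204* was at 103 CPM in Lyve1+ and 41.8 in other CD cells (1.30, 1.10 to 1.51), and at 123 and 54.4 in HFD (1.18, 0.91 to 1.45). *Oasl2* gave 1.10 and 0.69, and *Bst2* was at 198 against 114 CPM in CD (0.80) and 162 against 99.7 in HFD (0.70). *Ifit1* had the highest CD ratio, 1.67 on 42 UMIs, and -0.08 in HFD on 12. At the low end were *Mx1* (-0.66 and 0.39), *Slfn2* (-0.39 and 0.01) and *Gbp2* (-0.39 in both). *Ifi204* and *Oasl2* were thus high here and low in Ccr2+ and Lyz1-high cells, in comparisons that share the same cells.

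**Figure D3:**
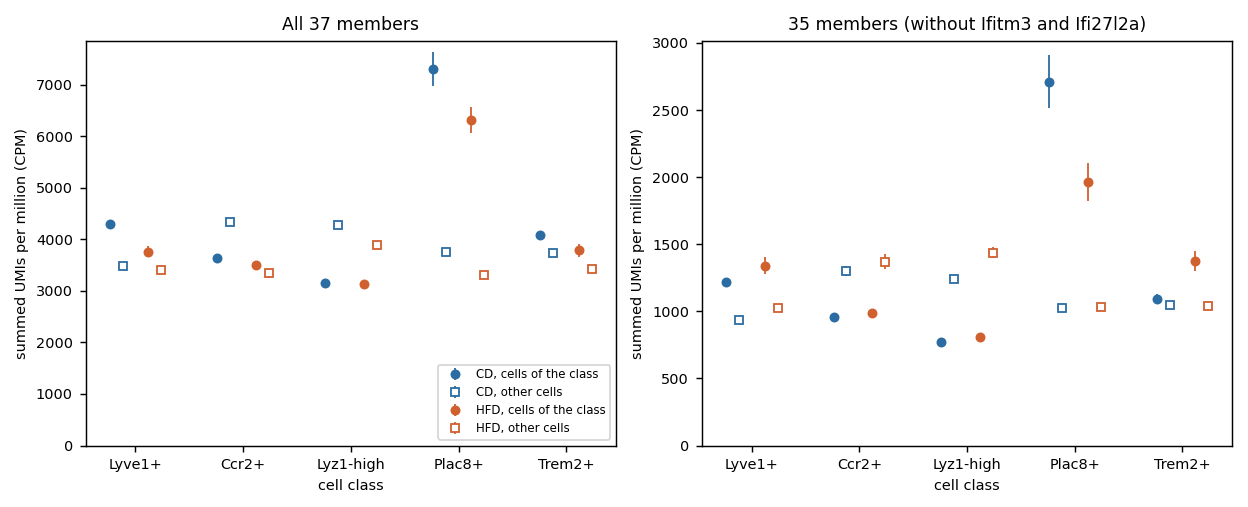
Summed level in CPM of the members in cells of each marker class (filled points) and in all other cells (open squares) of CD and HFD, for all 37 members on the left and 35 on the right, with exact 95% Poisson intervals for counting error. Plac8+ cells are highest (7297 and 6310 CPM for 37 members) and Lyz1-high cells lowest (3146 and 3128 CPM) in both libraries.

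Plac8+ cells had the highest level of any class. All 37 members summed to 7297 CPM in CD (6980 to 7625) and 6310 in HFD (6065 to 6563), against 3759 and 3314 in the other cells. Without *Ifitm3* and *Ifi27l2a* the sums were 2706 against 1022 CPM in CD (1.41, 1.30 to 1.51; 1.06 without the top cell) and 1961 against 1033 in HFD (0.92, 0.82 to 1.03). Of the 33 members 26 were 1.5-fold or more higher in CD and 23 in HFD, where 15.2% and 11.2% of all genes were. In CD 0 were lower and in HFD 2, *Ddx58* on 3 UMIs and *Mx1* on 1, where 25.7% and 21.5% of all genes were. The class held 42 and 73 cells, and many members there had only a few UMIs. In CD 2 of its cells held 178 and 160 of its 687 UMIs of the 34 members. In HFD 1 cell held 135 of 696.

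*Irf7* led. It was at 278 CPM in Plac8+ cells of CD (76 UMIs) against 9.24 in the others (4.91, 4.47 to 5.35), and at 121 CPM (48 UMIs) against 9.75 in HFD (3.64, 3.08 to 4.18). So 76 of its 187 CD UMIs came from 42 of 2364 cells, and 31 and 16 of those 76 from 2 single cells. *Isg15* followed with 205 against 24.1 CPM in CD (3.09) and 109 against 30.4 in HFD (1.84), and *Ifit3* with 3.52 and 2.24 on 19 and 8 UMIs. *Zbp1* gave 2.39 and 2.27 on 30 and 31 UMIs. The same 2 CD cells held 20 and 14 of the 56 *Isg15* UMIs, 6 and 10 of the 19 of *Ifit3* and 9 and 10 of the 30 of *Zbp1*. In HFD 1 Plac8+ cell held 19 of 43 *Isg15*, 6 of 8 *Ifit3* and 10 of 31 *Zbp1* UMIs. The CD values of *Irf7* and *Isg15* were 4.22 and 2.52 without the cell with most member UMIs, still the same side. Those of *Ifit3* and *Zbp1* were 3.04 and 1.95. The HFD cell with most member UMIs was not Plac8+, so its removal is no such check for HFD. *Ifitm3* was at 3013 and 2943 CPM in Plac8+ cells (0.70 and 0.73). At the low end, *Ddx58* (-0.01 and -0.76), *Eif2ak2* (0.09 and 0.87) and *Trim30a* (0.10 and 0.40) had intervals that held 0, as had *Slfn2* (0.23 and 0.01). *Stat2* and *Irf9*, the partners in the complex that drives these genes, gave 1.83 and 0.58 in CD and -0.29 and 0.51 in HFD, on 6 to 16 UMIs. The *Stat2* value of CD was 0.52 without the CD cell with most member UMIs, which held 8 of its 13 UMIs.

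Other cells' markers stand beside this class. *Ly6c2*, the transcript of the Ly6C the sort selected against, was at 472 CPM in CD and 162 CPM in HFD Plac8+ cells, with 136 UMIs in 16 CD cells and 71 in 19 HFD cells overall. Of Plac8+ cells 26.2% in CD and 16.4% in HFD held a UMI of another cell type's marker, against 19.7% and 13.8% of the cells outside the class. Here and below, the markers of other cell types leave out the erythroid list and *Ly6c2*. A single CD cell of 9218 UMIs held all 533 stromal UMIs of the class, and only 21 UMIs of the 34 members. T cell and NK cell markers were at 0 in Plac8+ cells. The part of *Ly6c2*-bearing cells in the class's member level was not tested.

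Trem2+ cells of CD were near the others, with 1093 against 1045 CPM for 35 members (0.07, 0.01 to 0.12) and 3 members 1.5-fold or more higher (*Oas1a*, *Rtp4* and *Eif2ak2*) and 2 lower (*Gbp2* and *Isg15*), where 3.64% and 4.46% of all genes were. In HFD the values were 1372 against 1041 CPM (0.40, 0.31 to 0.48; 0.20 without the top cell) with 13 higher and 2, *Gbp2* and *Gbp7* (-0.65), lower, where 9.10% and 15.1% were. That count rested on 1 cell. Without it 5 members were 1.5-fold or more higher (*Ddx58*, *Ifit3*, *Oas1a*, *Rtp4* and *Ifi35*), where 9.22% of all genes were. With at least 2 *Trem2* UMIs (54 HFD cells) 2 were higher and 14 lower, where 16.8% and 27.0% of all genes were. *Rsad2*, *Ifit1* and *Cmpk2* had ratios of 2.33, 2.15 and 2.05 in HFD, and 0.21, -0.27 and -0.46 without that cell. *Isg15* was at 18.8 against 32.0 CPM in CD (-0.77) and 69.1 against 29.7 in HFD (1.22, or 0.55 without the cell). More evenly spread were *Oas1a* (0.76 and 1.10) and *Rtp4* (0.68 and 1.17), which were higher in both libraries with and without it, and *Eif2ak2* (0.65 and 0.60). *Gbp2* was lower in both (-0.85 and -1.45), and *Irf7* gave -0.53 and 0.59. Erythroid markers were at 1976 CPM in Trem2+ cells of CD and 16.2 in those of HFD, and their part in these values was not tested.

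**Figure D4:**
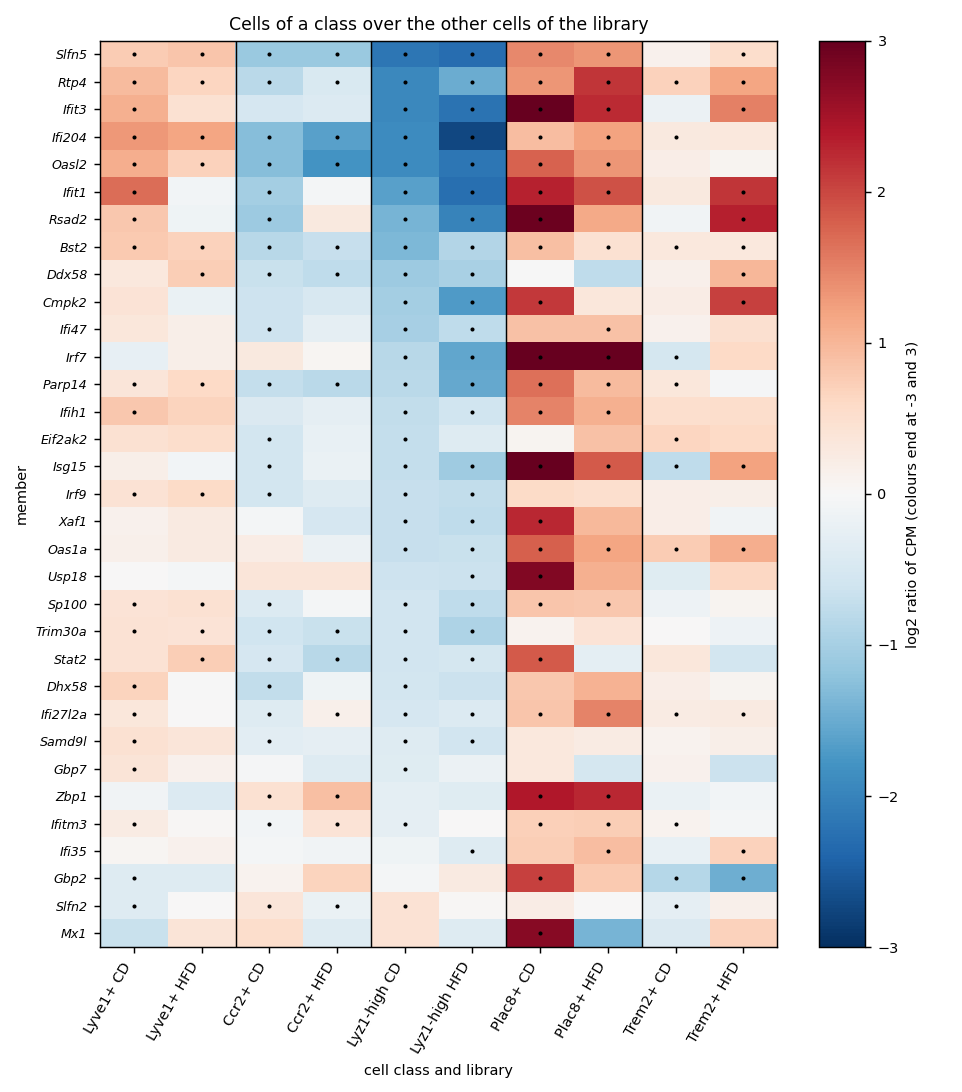
Log2 ratio of each member in a marker class over all other cells of the same library, as a colour from -3 to 3, for the 33 members with at least 100 UMIs (rows, ordered by Lyz1-high cells of CD); a dot marks an exact 95% counting interval that leaves out 0. Members are mostly below 0 in Lyz1-high cells, where 21 of 33 in CD and 22 in HFD are 1.5-fold or more lower, and above 0 in Plac8+ cells, where 26 and 23 are 1.5-fold or more higher.

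Between diets within a class, members with at least 100 UMIs in that class were compared. In Lyve1+ cells 2 of 25 were 1.5-fold or more higher in HFD, *Stat2* (0.74) and *Oas1a* (0.63), and 4 lower, *Ifi27l2a*, *Gbp7*, *Rsad2* (-0.71) and *Gbp2* (-0.64), where 4.79% and 6.80% of all genes were. In Ccr2+ cells 1 of 29 was higher, *Usp18* (0.91), and 2 lower, *Gbp7* and *Oasl2* (-0.62), where 3.08% and 6.71% were. In Lyz1-high cells 3 of 22 were higher, *Rtp4* (0.66), *Eif2ak2* (0.63) and *Oas1a* (0.62), and 0 lower, where 2.99% and 4.67% were. In Trem2+ cells 4 of 18 were higher, *Isg15* (1.88, or 1.21 without the top cell), *Oas1a* (0.92), *Ifi35* (0.92) and *Slfn2* (0.63), and 2 lower, *Gbp7* and *Ifi27l2a*, where 7.83% and 14.6% were. In Plac8+ cells 0 of 5 were higher and 2 lower, *Irf7* (-1.20, or -0.51 with an interval of -1.13 to 0.11 without the top cell) and *Bst2* (-0.88, or -0.63), where 5.40% and 5.75% were. *Oas1a* was thus higher in HFD in Lyve1+, Lyz1-high and Trem2+ cells.

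*Ifi27l2a* was at 1023 CPM in CD and 550 in HFD Lyve1+ cells (-0.90, -1.01 to -0.79), and gave -0.56 in Ccr2+, -0.58 in Lyz1-high and -0.65 in Trem2+ cells. In Plac8+ cells it was at 1578 and 1407 CPM (-0.17, -0.35 to 0.02), where the interval held 0. *Gbp7* was lower in HFD in Lyve1+ (-0.83), Ccr2+ (-0.81), Lyz1-high (-0.56) and Trem2+ cells (-1.40), and had 27 UMIs in Plac8+ cells. *Gbp7* was thus below 0 in each class with at least 100 UMIs of it. These classes share cells, and the part of class shares in its lower level was not tested. *Bst2* was lower in HFD in Lyve1+ (-0.29), Ccr2+ (-0.35) and Trem2+ cells (-0.40) as well, and its interval held 0 in Lyz1-high cells (0.06, -0.15 to 0.27).

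The 37-gene sum of HFD over CD was -0.19 in Lyve1+ cells (-0.24 to -0.15), -0.21 in Plac8+ cells (-0.30 to -0.12), -0.11 in Trem2+ cells (-0.16 to -0.05), -0.05 in Ccr2+ cells (-0.08 to -0.03) and -0.01 in Lyz1-high cells (-0.04 to 0.03). For the 35 members it was 0.13 in Lyve1+ (0.06 to 0.21), 0.33 in Trem2+ (0.23 to 0.42), 0.04 in Ccr2+ (-0.00 to 0.09), 0.06 in Lyz1-high (-0.00 to 0.13) and -0.46 in Plac8+ cells (-0.61 to -0.32). *Ifitm3* was higher in HFD in Lyz1-high (0.15) and Ccr2+ cells (0.08) and lower in Lyve1+ (-0.14) and Trem2+ cells (-0.16). The sum therefore turned its sign in Lyve1+ and Trem2+ cells with the choice of members. In Ccr2+ and Lyz1-high cells the point values did so too, but the intervals for the 35 members held 0. Without the 1 cell of each library with most member UMIs, the 35-gene value was 0.13 in Trem2+ cells (0.03 to 0.22) and -0.11 in Plac8+ cells (-0.27 to 0.04). The 37-gene value in Plac8+ cells was then -0.055, and without the 5% of cells with most UMIs it was 0.076, so the lower level of Plac8+ cells in HFD rested on few cells. The Trem2+ class differed in make-up between the libraries, with 60.5% of its cells also Lyve1+ in CD and 19.0% in HFD. The part of this in its values was not tested.

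The members were unevenly spread over cells. With each cell thinned to 800 UMIs (2334 CD and 1874 HFD cells, with 30 and 147 shallower ones left out), the 5% of cells with most UMIs of the 34 members held 25.8% of them in CD and 29.3% in HFD. Cells were ordered by these same UMIs, so counting alone also puts more than 5% there, and that share was not computed. The variance over cells was 1.91 and 2.37 times the mean, where counting alone gives 1. *Slfn2* was close to counting with 1.08 and 1.17, and *Ifitm3* gave 1.40 and 1.49. At equal relative spread this ratio grows with the mean, so it does not rank genes by unevenness. The mean was 0.124 and 0.150 UMIs per cell for *Slfn2*, 1.47 and 1.27 for *Ifitm3* and 0.81 and 0.85 for the 34 members. The top 5% of cells for *Slfn2* still held 49.5% and 46.8% of its UMIs, so such a share does not by itself measure unevenness. No thinned UMI of the 34 was found in 49.4% of CD and 51.3% of HFD cells, while single cells held up to 25 and 24.

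**Figure D5:**
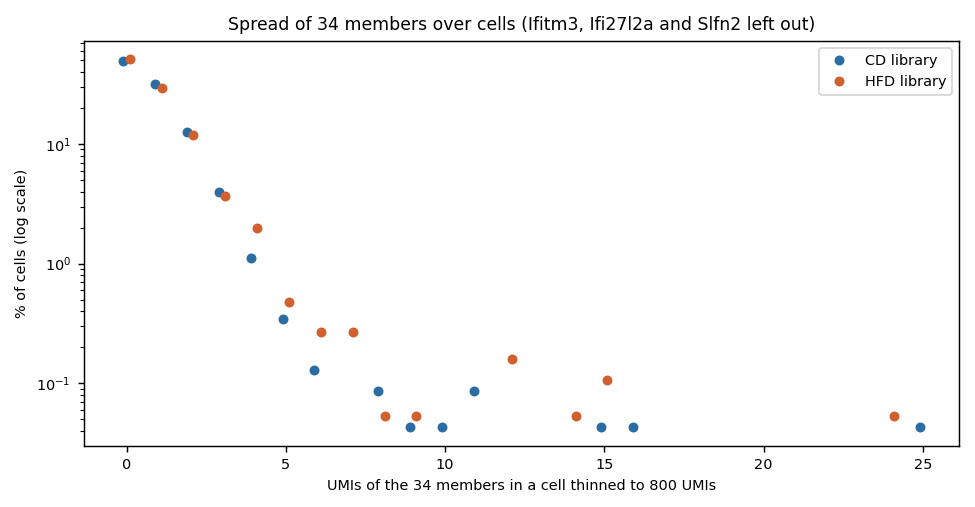
Percent of cells (log axis) by their number of UMIs of the 34 less abundant members after thinning each cell to 800 UMIs, for CD and HFD. About as many cells hold none in both (49.4% and 51.3%), and a thin tail of cells with 4 or more reaches 25 and 24 UMIs.

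Cells with at least 4 thinned UMIs of the 34, a limit set after the values were seen, numbered 46 in CD (1.97%, 1.45 to 2.62) and 65 in HFD (3.47%, 2.69 to 4.40). At the limit were 26 and 37 cells, and 92 and 69 lay 1 UMI below it. They were shallower than the rest, with medians of 3858.5 against 4581 UMIs in CD and 2275 against 3229 in HFD, and held more mitochondrial UMIs (4.90% against 4.08%, and 5.37% against 3.40%). Among cells with at least 1000 genes the shares were 1.83% (37 of 2023) and 2.84% (34 of 1196). By class they were rare among Lyz1-high cells, with 1 of 555 in CD and 5 of 672 in HFD (0.180% and 0.744%), against 2.53% and 4.99% of the other cells. They were most frequent among Plac8+ cells, with 4 of 42 (9.52%, 2.66 to 22.6) and 8 of 73 (interval 4.85% to 20.5%).

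To see whether members were high in the same cells, each member's level was compared between cells with at least 3 and cells with 0 thinned UMIs of the remaining members of the 34. All 33 members with at least 100 UMIs were above 0 in both libraries, with medians of 2.01 in CD and 2.37 in HFD on the log2 scale, and 32 of 33 intervals lay above 0 in each. The exceptions were *Irf9* in CD (0.46, -0.31 to 1.14) and *Dhx58* in HFD (1.31, -0.00 to 2.45). The same comparison was not made for genes outside the members, so the share of all genes above 0 is not known. These counts therefore do not set the members apart from other genes. *Ifit3* gave 5.95 and 6.60, *Irf7* 4.68 and 4.18, and *Isg15* 3.82 and 4.29, with *Isg15* at 223 against 15.8 CPM in CD and 315 against 16.1 in HFD. *Ifit1* gave 4.85 and 8.18, the latter on 2 UMIs in the cells with 0 (6.26 to 11.3). The 3 members with most UMIs were below the medians, with *Ifitm3* at 0.72 and 0.63, *Slfn2* at 0.55 and 0.31 and *Ifi27l2a* at 1.11 and 1.28. Some less abundant members were also low, among them *Irf9* in CD and *Gbp7* (1.07 and 0.79). Members with the promoter word had medians of 1.98 in CD and 2.12 in HFD, and those with a window and no word 1.95 and 2.22.

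The cell with most UMIs of the 34 in CD had 178 among 12723, with 31 of *Irf7*, 20 of *Isg15* and 15 of *Rsad2*, and it was Ccr2+, Lyz1-high and Plac8+. The next had 160 among 7316 and was Ccr2+ and Plac8+. In HFD the top cell had 169 among 6432 and was Ccr2+ and Trem2+, with 27 of *Rsad2*, 24 of *Isg15*, 22 of *Ifit1* and 19 of *Cmpk2* but 1 of *Irf7*. The next had 135 and was Ccr2+ and Plac8+. These cells differed in which members they carried, and both top cells held no UMI of another cell type's markers, erythroid markers and *Ly6c2* not counted. The HFD cell alone held 2.38% of the library's UMIs of the 34, and the CD cell 1.62%.

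Genes outside the 37 that were highest in cells with 4 or more were named by the lower of the CD and HFD ratios over other cells. *Ly6c2* was first, at 506 against 2.74 CPM in CD (7.53) and with a ratio of 5.52 in HFD. *Ms4a4c* gave 5.21 and 4.22 and *Plac8*, which marks monocytes, 4.97 and 3.98. Among them were interferon-inducible genes outside the 37, *Ifi213* (4.51 and 4.57), *Slfn1* (5.07 and 4.04), *Ifi211* (3.21 and 4.01), *Oasl1* (2.91 and 4.16) and *Irgm1* (3.16 and 2.71). *Ly6a* gave 4.91 and 3.15, and *Ly6c1* 3.05 and 2.70, the latter on 2 UMIs in HFD (-0.49 to 4.84). The *Ly6c2* UMIs numbered 103 of 136 in CD and 37 of 71 in HFD, so part of the high cells carried the transcript of the sort's negative marker. All *Plac8* UMIs of the high cells lay in 4 Plac8+ cells in CD and 8 in HFD. Those were 8.70% and 12.3% of the high cells, while 60.9% and 24.6% were Lyve1+. The ratios of these monocyte genes thus describe few of the high cells.

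Beyond the members, 73 further genes of the pathway were counted, from ligands to brakes and genes induced by interferon gamma, of which 43 had at least 100 UMIs. Of these 2 were 1.5-fold or more higher in HFD and 2 lower (3.80% and 7.11% of all genes), with a median of -0.02. The 21 interferon genes were nearly absent, with 7 UMIs in CD and 2 in HFD over all of them, among them 1 of *Ifnb1* and 1 of *Ifng*, both in CD. The receptors were present, with *Ifnar1* at 41.0 and 39.0 CPM (-0.07), *Ifnar2* at 66.6 and 59.4 (-0.17), *Ifngr1* at 203 and 250 (0.30), *Ifngr2* at 50.1 and 57.5 (0.20) and *Il10rb* at 125 and 104 (-0.27). *Ifnlr1* had no UMI in either library, which 3 UMIs or 0.244 CPM in CD and 0.371 CPM in HFD would bound.

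Of the kinases and STATs, *Jak1* was at 135 CPM in CD and 125 in HFD, *Jak2* at 20.1 and 17.4 and *Tyk2* at 29.0 and 32.9. *Stat3* was at 106 and 94.5. None of these was near 1.5-fold. The pathway genes past it were *Irgm1*, a GTPase (0.95, 107 and 136 UMIs), *Ikbke*, a kinase that activates IRF factors (0.64, 114 and 117 UMIs), and, lower in HFD, the brakes *Socs1* (-1.11, -1.70 to -0.56; 115 and 35 UMIs) and *Socs3* (-0.68, -0.79 to -0.57; 190 and 118 CPM). *Socs1* blunts JAK signalling from interferon receptors and *Socs3* that of IL-6 family receptors.

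The IRF genes that were also counted by class did not run one way. *Irf8*, which guides macrophage identity, was higher in Lyve1+ cells (1.20 in CD and 0.74 in HFD) and lower in Ccr2+ (-1.45 and -1.12) and Lyz1-high cells (-2.45 and -2.43). *Irf5*, which acts downstream of Toll-like receptors, ran the other way, with -0.58 and -0.34 in Lyve1+, 0.65 and 0.52 in Ccr2+ and 0.60 and 0.24 in Lyz1-high cells. *Irf1*, which interferon gamma induces, gave 0.09 and 0.20 in Lyve1+, -0.05 and -0.38 in Ccr2+ and -0.06 and -0.50 in Lyz1-high cells. In Plac8+ cells *Irf8* gave -0.06 and 1.34, and in Trem2+ cells 0.54 and 1.48. These 3 genes were named after their values were seen.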

How the data were processed

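The members and every gene list were chosen with earlier results of these data known. The authors deposited filtered gene-by-cell tables of UMI counts, 1 library per diet, made with Cell Ranger 3.0.2 on mm10, and reads that map to several genes are not counted by it. From these counts, cells with 200 to 3500 genes and at most 10% mitochondrial UMIs were kept. The limit of 3500 genes was the only step against doublets, with an alternative that left out the 5% of cells with most UMIs. UMIs were summed per library or class and divided by all UMIs there (CPM). The 95% intervals are exact (Poisson for a level, conditional binomial for a ratio, Clopper-Pearson for a share) and hold no error but that of counting. Ratios are on the log2 scale. A gene was past the fold at 1.5-fold and 100 UMIs in both libraries together. With 1 library per diet no test was run.

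Named were all 37 members: with values, the 5 of highest level, those past the fold, the 3 highest and 3 lowest of each class in CD, and *Irf7*, *Isg15*, *Ifit1*, *Ifit2*, *Ifit3*, *Stat2*, *Irf9* and *Usp18* for their roles. Also named were the 10 outside genes highest in cells high in members, and of the pathway the receptors, kinases, STATs and genes past the fold. Others were named after their values were seen. A pathway gene is not reported here. Promoter windows came from RefSeq (GRCm38.p6) and gene positions from GENCODE M21. Cells were thinned to 800 UMIs with a fixed seed where shares of cells were compared. Python 3.11.15, numpy 2.4.6, scipy 1.17.1, pandas 2.3.3 and matplotlib 3.10.9 were used, and the steps were tested on simulated data.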

Additional observations from a re-analysis of the deposited data

Results flagged for a closer look

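In 5 results the class and the other cells stood in opposite order in the 2 libraries, and the difference between the libraries was not tested. All 37 members summed gave a log2 ratio of Ccr2+ over other cells of -0.254 in CD and 0.068 in HFD. The HFD value was -0.018 with at least 1000 genes per cell and 0.001 with classes from thinned cells, so that the opposite order was lost. *Ifitm3* gave -0.076 and 0.413 in the same comparison, *Ifi27l2a* -0.386 and 0.155, and *Slfn2*, the other way round, 0.369 and -0.209. *Isg15* in Trem2+ over other cells gave -0.769 in CD and 1.217 in HFD, and -0.66 and 0.55 without the 1 cell of each library with most member UMIs.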

How the results depend on the processing

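No paired analysis was possible because each diet has 1 library, so that the groups share fewer than 2 replicate numbers. Values are log2 ratios unless called counts or percentages, and the cause of each move was not tested. With 1 pooled library per diet, depth limits the rare members, and the spread between mice is unknown. Leaving out *Ifitm3* and *Ifi27l2a*, the exclusion of the 1 top cell of each library and several settings for classes were chosen after seeing the data.

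The 37-gene sum of HFD over CD was -0.13 with at least 1000 genes per cell, -0.11 with at most 5% mitochondrial UMIs, -0.21 thinned, -0.12 over UMIs without the 50 most abundant genes, -0.22 as a mean over cells, -0.27 without *Ifitm3*, -0.01 without *Ifi27l2a*, -0.17 without *Slfn2* and 0.026 without both *Ifitm3* and *Ifi27l2a*. The count of members higher was 1 of 30 at 5% mitochondrial UMIs (3.42% of all genes), 1 of 15 thinned (5.45%) and 1 of 33 without the top cells (3.80%). At a fold of 2 it was 0 of 33 (1.06%), and the count lower was 0 as well (2.48%). The median member ratio was 0.03 with at least 1000 genes, 0.11 without the 5% of cells with most UMIs and 0.24 thinned, on 15 members. In all 9 settings it moved by no more than a limit taken from the width of single members' intervals. That limit is wide, so staying within it does not show the median to be stable. Of single members, *Ifit3* gave 0.32 thinned, and *Ifitm3* 0.027 with at least 1000 genes and 0.01 at 5% mitochondrial UMIs. The pathway count higher was 1 with at least 1000 genes, where 3.64% of all genes were.

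Within classes, the sum of HFD over CD without *Ifitm3* and *Ifi27l2a* was 0.13 in Lyve1+, 0.045 in Ccr2+, 0.064 in Lyz1-high, -0.46 in Plac8+ and 0.33 in Trem2+ cells. For all 37 members, with 2 marker UMIs it was -0.064 in Lyve1+, -0.018 in Ccr2+ and -0.51 in Trem2+ cells. With cells of 1 class only it was -0.24 in Lyve1+, 0.022 in Ccr2+, 0.14 in Lyz1-high, -1.06 in Plac8+ and -0.53 in Trem2+ cells. With classes from thinned cells it was -0.41, -0.085, 0.062, -0.38 and -0.53 in that order. Without cells with another type's marker it was -0.15 in Lyve1+ and -0.34 in Plac8+ cells, and without the 5% of cells with most UMIs 0.037 in Lyz1-high and 0.076 in Plac8+ cells. Thinned, it was -0.10 in Plac8+ cells, and without the top cells -0.055 there and -0.20 in Trem2+ cells. For 35 members in Plac8+ cells, leaving out the 5% gave 0.094. In Ccr2+ cells the 37-gene sum was -0.03 by the median of ratios and -0.021 without the 50 most abundant genes.

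For the sum in a class over other cells, CD then HFD, leaving out both genes gave 0.39 and 0.39 in Lyve1+, -0.44 and -0.47 in Ccr2+, -0.69 and -0.83 in Lyz1-high, 1.41 in Plac8+ (CD) and 0.066 and 0.40 in Trem2+ cells. For all 37 members, with 2 marker UMIs it was 0.35 and 0.35 in Lyve1+, -0.41 and -0.26 in Lyz1-high, 1.64 and 1.57 in Plac8+ and 0.034 and -0.34 in Trem2+ cells. With cells of 1 class only it was 0.42 and 0.27 in Lyve1+, -0.37 in Ccr2+ (CD), -0.69 and -0.36 in Lyz1-high, 0.10 in Plac8+ (HFD) and -0.16 and -0.49 in Trem2+ cells. With classes from thinned cells it was 0.009 in Lyve1+ (HFD), -0.17 and 0.001 in Ccr2+, -0.51 and -0.23 in Lyz1-high, 1.42 and 1.28 in Plac8+ and 0.061 and -0.27 in Trem2+ cells. Thinned with classes kept, it was -0.54 in Lyz1-high (CD), 0.85 and 1.005 in Plac8+ and 0.094 and 0.24 in Trem2+ cells. Without the 5% of cells with most UMIs it was -0.22 in Ccr2+ (CD), -0.48 in Lyz1-high (CD), 0.87 and 1.14 in Plac8+ and 0.20 in Trem2+ cells (HFD). Without cells with another type's marker it was 0.28 in Lyve1+ (CD), 0.026 in Ccr2+ (HFD), -0.41 in Lyz1-high (CD), 1.06 in Plac8+ (CD) and 0.16 in Trem2+ cells (CD). At 5% mitochondrial UMIs it was -0.31 in Ccr2+ (CD), -0.39 in Lyz1-high (HFD) and 1.05 in Plac8+ cells (CD), with at least 1000 genes -0.018 in Ccr2+ and -0.44 in Lyz1-high cells of HFD, and without the top cells 0.80 in Plac8+ (CD) and 0.058 in Trem2+ cells (HFD).

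Counts of members past the fold by class moved as follows, with the share of all genes in the same setting in brackets. With 2 marker UMIs, 0 were lower in Lyve1+ cells of CD (7.72%), and 18 higher and 1 lower in Lyve1+ cells of HFD (19.8% and 13.9%). With the same limit 1 was higher in Ccr2+ cells of CD (8.11%), and 2 higher and 14 lower in Trem2+ cells of HFD (16.8% and 27.0%). Without cells with another type's marker, 2 were lower in Lyve1+ cells of HFD (7.89%) and 1 lower in Plac8+ cells of HFD (23.6%). In that setting 1 was higher in Ccr2+ cells of CD (9.66%) and of HFD (8.69%), and 1 higher in Lyz1-high cells of CD (8.05%). With at least 1000 genes, 1 was lower in Lyve1+ cells of HFD (7.90%) and 1 higher in Ccr2+ (8.76%) and in Lyz1-high cells of CD (8.06%). Without the top cell, 5 were higher in Trem2+ cells of HFD (9.22%). The 5% of cells with most UMIs of the 37 members held 16.1% and 17.7% of them, 14.5% in CD thinned to 1500 UMIs, 25.8% and 29.3% for the 34 members, and the top 10% of cells held 26.9% and 28.9%. Of 258 further values of single members, 232 stayed within their intervals, 23 moved and 3 turned their sign.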

Other observations

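Barcodes left out by the limits on genes and mitochondrial UMIs, 2095 in CD and 1142 in HFD, also held members. The 34 members other than *Ifitm3*, *Ifi27l2a* and *Slfn2* were at 1044 CPM in them in CD (1006 to 1083) and 1076 in HFD (1015 to 1140). All 37 were at 2736 and 2501 CPM.

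Across kept cells grouped by genes per cell, *Ifitm3* and the 34 members ran differently. *Ifitm3* was at 1302 CPM in CD cells with 200 to 999 genes, 1837 with 1000 to 1499, 2017 with 1500 to 1999 and 1847 with 2000 to 3500. In HFD it was at 1162, 1906, 2023 and 1898 CPM. The 34 members were at 1168, 1120, 1041 and 710 CPM in CD and at 1185, 1158, 1025 and 615 in HFD.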
